A study of Mus musculus with 18 samples.

Results

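The 36 genes described here belong to the interferon response and to class I antigen processing. They are 6 receptor subunits and transcription factors, 5 sensors and regulators, 17 antiviral effectors, 3 genes of the *Parp9* group and 5 antigen processing genes. Members were chosen by name, and each was read from the probe set with its symbol alone that had the highest mean signal over all arrays. By that rule 34 of the 36 members were measured, among 18193 genes named on the array. *Isg15* was left out because its probe set carried several symbols, and *Ifi44* because no probe set was named for it. RNA was hybridised to Affymetrix whole-genome mouse expression arrays from mouse hepatoma Hepa-1c1c7 cells and from their mutant derivative *c*35. The wild-type cells carry a functional aryl hydrocarbon receptor (AHR), the transcription factor that dioxins and polycyclic aromatic hydrocarbons activate, whereas the AHR of *c*35 cells has a missense mutation and cannot bind DNA. Each line was exposed for 8 hr to the solvent DMSO (naive cells), to 5 nM of the dioxin TCDD or to 5 µM benzo[*a*]pyrene (BaP), with DMSO as vehicle in every group and 3 replicate arrays per group, 18 arrays in all. Each line is a single cultured line and *c*35 is a mutant derivative, so any other difference between the lines and the AHR mutation cannot be told apart.

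Type I interferons bind a receptor made of IFNAR1 and IFNAR2, and the signal reaches the nucleus as a complex containing STAT2 and IRF9 that binds the interferon-stimulated response element (ISRE) in promoters. The genes it switches on encode effectors that block viral entry, translation, replication and budding, sensors of viral RNA such as MDA5, and brakes such as USP18. Class I antigen processing is linked to this response: the immunoproteasome cuts proteins into peptides, the TAP transporter carries them into the endoplasmic reticulum, and beta-2-microglobulin completes the class I molecule that presents them. Hepatocytes express the interferon receptor and respond to it.

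The promoter sequences of the members show where such elements lie. The 250 bases before each annotated start were read from RefSeq (build GRCm38.p6) for 28 of the 34 measured members, which had 36 promoters in the table. No entry was found for *Tap2*, *Usp18*, *Mx1*, *Mx2*, *Parp9* and *Parp14*. The ISRE was searched on both strands as GAAA followed by any 2 bases and a second GAAA, and neighbouring matches may overlap. It was present before 8 of the 28 members (28.6%) and before 3.46% of the 27025 genes of the table. The 4 sequences below were chosen because they carry the contrast described afterwards: *Bst2* and *Stat2* have an ISRE and were lower in the wild-type line, *Ifit3* has 2 and was called in no comparison, and *Psmb8* has none and was higher in wild-type cells. Each runs 5′ to 3′ toward the start. Capitals mark the ISRE in the first 3 sequences and, in *Psmb8*, the AHR core, searched as GCGTG on both strands. *Stat2* also holds the AHR core, which is left unmarked there. The sequences lie at chr8:71537473-71537722 on the minus strand for *Bst2*, and on the plus strand at chr10:128270248-128270497 for *Stat2*, chr19:34583279-34583528 for *Ifit3* and chr17:34197945-34198194 for *Psmb8*.
Bst2: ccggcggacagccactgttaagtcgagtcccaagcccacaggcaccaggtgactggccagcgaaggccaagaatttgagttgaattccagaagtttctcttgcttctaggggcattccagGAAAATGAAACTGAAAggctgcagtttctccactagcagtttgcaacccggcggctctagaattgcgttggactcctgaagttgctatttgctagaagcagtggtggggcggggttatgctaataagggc
Stat2: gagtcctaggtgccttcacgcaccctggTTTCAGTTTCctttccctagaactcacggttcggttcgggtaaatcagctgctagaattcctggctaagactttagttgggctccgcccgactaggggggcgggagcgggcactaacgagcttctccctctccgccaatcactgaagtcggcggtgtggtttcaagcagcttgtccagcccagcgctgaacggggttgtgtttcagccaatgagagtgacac
Ifit3: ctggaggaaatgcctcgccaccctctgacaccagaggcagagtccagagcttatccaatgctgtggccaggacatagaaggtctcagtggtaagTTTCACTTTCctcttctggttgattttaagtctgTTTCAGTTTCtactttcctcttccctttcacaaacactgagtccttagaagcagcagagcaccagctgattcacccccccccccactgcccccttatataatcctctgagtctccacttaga
Psmb8: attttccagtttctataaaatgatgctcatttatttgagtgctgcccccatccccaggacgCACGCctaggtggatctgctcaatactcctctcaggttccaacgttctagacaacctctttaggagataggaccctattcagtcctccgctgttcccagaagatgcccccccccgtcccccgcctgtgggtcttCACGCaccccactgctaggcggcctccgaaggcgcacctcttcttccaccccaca

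The 2 matches before *Bst2* overlap and began 130 and 124 bases before the start. In *Ifit3* they began at 156 and 122 bases, and in *Stat2* at 222 bases. Of members with a promoter entry, an ISRE was found before 2 of the 10 that were lower in naive wild-type cells (*Bst2* and *Stat2*), before 0 of the 2 that were higher, and before 6 of the 16 that were not called (*B2m*, *Gbp2*, *Gbp3*, *Ifit1*, *Ifit3* and *Rsad2*). The AHR core was present before 12 of the 28 members (42.9%), against 30.9% of all genes, and *Psmb8* had 2 copies. It was found before 1 of the 2 higher members, 2 of the 10 lower and 9 of the 16 not called. A second interferon element, the GAS site searched as TTCNNNGAA, was present before 7 members (25.0%), against 8.13% of all genes. *Bst2* and *Psmb8* were among the 7, and their GAS sites are not marked above. These matches describe letters in a window and were not tested as binding sites.

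The deposited values are log2 signals, with a median of 5.66 and a 5th to 95th percentile range of 2.69 to 10.64 over all probe sets. Arrays of the same line correlated at 0.991 to 0.997 in wild-type and 0.995 to 0.998 in *c*35 cells, against 0.969 to 0.980 between the lines. The signal difference between the 3′ and 5′ probe sets of *Actb*, a sign of RNA degradation or short labelling products, ran from 0.73 to 1.38 in wild-type and from 0.30 to 0.53 in *c*35 arrays. The highest value was that of wild-type DMSO replicate 1, which also deviated most from its group. *Cyp1a1*, the classic AHR target, rose from 9.61 to 9.81 in naive wild-type cells to 12.92 to 13.07 with TCDD and 13.37 to 13.47 with BaP. In *c*35 cells it lay between 4.87 and 8.34 and was raised on 3 arrays (8.32 and 8.34 on DMSO replicates 1 and 2, and 8.32 on BaP replicate 3). Calls of members that change without any of these 4 arrays are given with and without them. Genes outside the members were not followed in this way. Of 7 hepatocyte markers measured, 1 was higher in naive wild-type cells (*Alb*, at 13.64 against 11.18), 1 was lower (*Fgb*, at 4.02 against 4.98), and the others were not called (among them *Afp*, at 12.11 against 11.93). The log2 of their summed signal ran from 14.03 to 14.18 on naive wild-type and from 12.66 to 12.70 on naive *c*35 arrays. Signals were summed before the log was taken, so *Alb* and *Afp* make up most of this sum. *Ttr*, the next strongest marker, was at 6.73 against 6.95. Over all genes, 7.52% were called higher and 6.52% lower in naive wild-type cells. The part of these hepatocyte markers in the line differences below was not tested.

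The naive lines were compared first, to ask how the interferon program differs between the lines before any ligand is added. 3 of the 4 transcription factors (*Stat2*, *Irf7* and *Irf9*), the receptor subunit *Ifnar2* and 6 effectors had less mRNA in the wild-type line than in *c*35, whereas the immunoproteasome subunit *Psmb8* and the transporter subunit *Tap2* had higher mRNA. Of the 34 members, 10 were lower (29.4%) and 3 were higher (8.82%) in wild-type cells by limma, where a call needed more than 1.5-fold and an adjusted p under 0.05. Over all 18193 genes the same rule called 6.52% lower and 7.52% higher, so the share of members called higher was close to the background. These calls rest on 1 probe set per gene. For 3 called members (*Ifnar2*, *Xaf1* and *Psmb8*) another probe set was not called, and for 1 (*Stat2*) another was called the same way. The median log2 fold change of the members was -0.17, against -0.027 for all genes. The arrays of the lines did not overlap for 23 members (16 lower and 7 higher in wild-type cells), where 47.4% of all genes did not overlap. In cultures measured in bulk, fewer cells expressing a gene and less RNA per cell cannot be told apart.

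**Figure D1:**
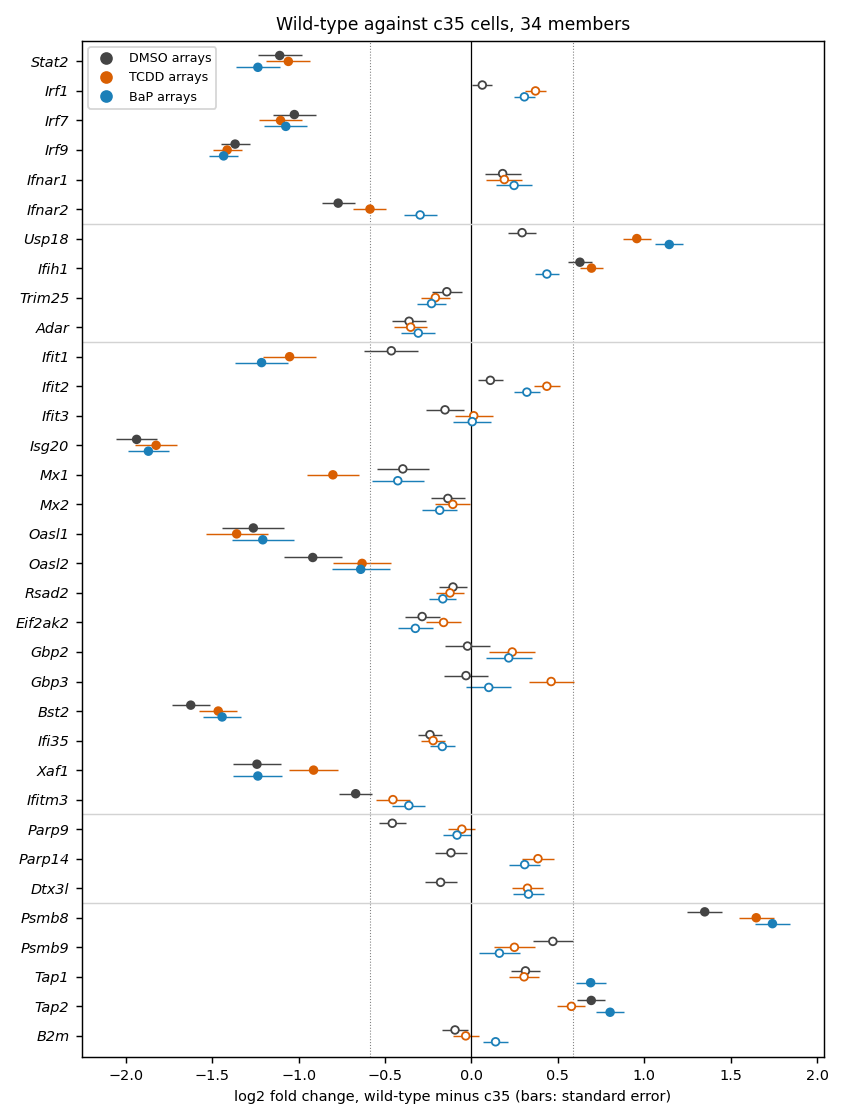
Log2 fold change, wild-type minus *c*35, of each of the 34 measured members on the DMSO, TCDD and BaP arrays, with bars for the standard error. Filled points were called (adjusted p below 0.05 and above 1.5-fold, the dotted lines), and grey lines separate receptors and transcription factors, sensors and regulators, antiviral effectors, the *Parp9* group and antigen processing. *Isg20* at -1.94 on the DMSO arrays lies furthest to the left and *Psmb8* at 1.35 furthest to the right on those arrays.

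Among the 6 receptor subunits and transcription factors, 4 were lower in naive wild-type cells and 0 were higher. *Irf9*, the DNA-binding subunit of the interferon-activated complex, had log2 signals of 6.22, 6.19 and 6.22 on the naive wild-type arrays and 7.61, 7.46 and 7.66 on the naive *c*35 arrays. The lines were far apart, and the replicates of each line lay close together. The fold change was -1.37 ± 0.08 (SE, limma adjusted p = 6.81e-11). *Stat2*, its partner, read 5.71, 5.81 and 5.44 against 6.83, 6.77 and 6.70, with a log2 fold change of -1.11 ± 0.13 (SE, limma adjusted p = 6.15e-07). Its other probe set was lower as well, by -1.68 on the log2 scale. *Irf7*, which drives type I interferon genes once infection is sensed, read 5.56, 5.54 and 5.48 against 6.38, 6.60 and 6.69. All wild-type arrays of *Stat2* and *Irf7* lay below all *c*35 arrays, and the log2 fold change of *Irf7* was -1.03 ± 0.12 (SE, limma adjusted p = 1.28e-06).

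Of the receptor subunits, *Ifnar2* was called and *Ifnar1* was not. *Ifnar2*, the subunit that binds interferon most tightly, read 9.82, 10.21 and 10.16 in naive wild-type and 10.88, 10.86 and 10.77 in naive *c*35 cells (log2 fold change -0.77 ± 0.10, SE, limma adjusted p = 1.57e-06). This call rests on that probe set, since the other 2 probe sets of *Ifnar2* gave log2 fold changes of 0.24 and 0.13 and were not called, and the mean of its probe sets gave -0.13 (limma adjusted p = 0.250). *Ifnar1*, the other subunit, read 8.84, 8.32 and 8.42 against 8.49, 8.39 and 8.16, where the lines overlapped (log2 fold change 0.18 ± 0.10, SE, limma adjusted p = 0.210). *Irf1*, a transcription factor of the interferon-gamma response, read 9.46 to 9.55 in wild-type and 9.39 to 9.47 in *c*35 cells, with a log2 fold change of 0.062 and a limma adjusted p of 0.469.

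**Figure D2:**
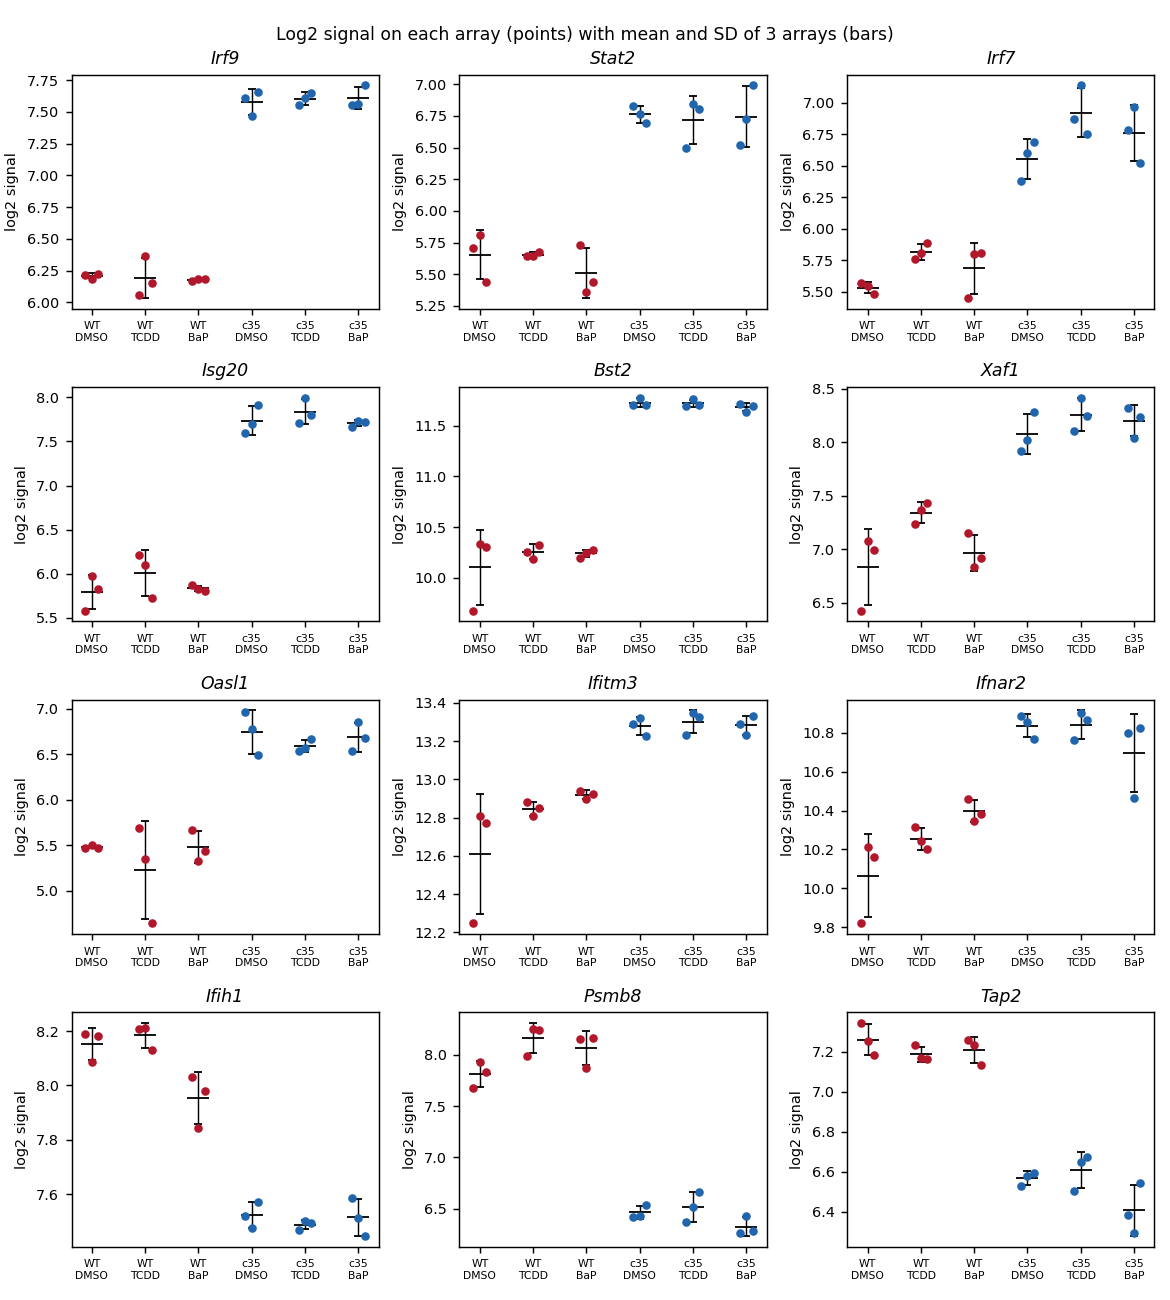
Log2 signal of 12 members on every array, with wild-type (WT) arrays in red and *c*35 arrays in blue, a horizontal bar for the mean of 3 arrays and whiskers for the SD. In 9 panels the wild-type arrays lie below the *c*35 arrays, as for *Irf9* (6.19 to 6.22 against 7.46 to 7.66 with DMSO), and in *Ifih1*, *Psmb8* and *Tap2* they lie above.

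Of the 16 antiviral effectors measured, 6 were lower in naive wild-type cells and 0 were higher. *Isg20*, an exonuclease that degrades viral RNA, read 5.58, 5.98 and 5.83 on wild-type and 7.59, 7.69 and 7.91 on *c*35 arrays. Every wild-type array was well below every *c*35 array, and the signal was 3.83-fold lower (log2 fold change -1.94 ± 0.12, SE, limma adjusted p = 8.90e-11). *Bst2*, or tetherin, which holds budding virions at the cell surface and whose promoter with 2 ISRE matches is printed above, read 9.68, 10.33 and 10.30 against 11.70, 11.78 and 11.71 (log2 fold change -1.62 ± 0.11, SE, limma adjusted p = 3.52e-10). The *c*35 arrays were tightly grouped, while wild-type DMSO replicate 1 lay apart from the mean of the other naive wild-type replicates (log2 difference -0.64). *Oasl1*, which belongs to the oligoadenylate synthetase-like family, read 5.47, 5.50 and 5.48 against 6.96, 6.78 and 6.49 (log2 fold change -1.26 ± 0.18, SE, limma adjusted p = 9.19e-06). *Xaf1*, an interferon-induced proapoptotic factor, read 6.43, 7.08 and 6.99 against 7.92, 8.03 and 8.29 (log2 fold change -1.24 ± 0.14, SE, limma adjusted p = 5.11e-07). Its other probe set gave a log2 fold change of 0.10 and was not called, and the mean of its probe sets gave -0.57, below the 1.5-fold minimum.

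*Oasl2*, of the same family as *Oasl1*, and *Ifitm3*, a membrane protein that blocks viral entry, completed the effectors that were lower. *Oasl2* lay at 3.87 to 4.56 in wild-type and 4.95 to 5.20 in *c*35 cells (log2 fold change -0.92, limma adjusted p = 0.000161). *Ifitm3* lay at 12.25 to 12.81 against 13.23 to 13.32 (log2 fold change -0.67, limma adjusted p = 1.04e-05), and without wild-type DMSO replicate 1, which set the low end, its log2 fold change was -0.49 and no longer reached 1.5-fold. When the fit carried this *Actb* measure as a covariate, the log2 fold changes of *Ifitm3*, *Ifnar2* and *Ifih1* were -0.36, -0.56 and 0.54, and all fell short of 1.5-fold. With that covariate *Adar* was instead called lower in naive wild-type cells (log2 fold change -0.61, limma adjusted p = 0.00199) and on the TCDD arrays (-0.62, limma adjusted p = 0.00228), and *Mx1* on the BaP arrays (-0.65, limma adjusted p = 0.0435). The other 10 effectors were not called. Among them, *Ifit3*, an RNA-binding protein whose promoter holds 2 ISRE matches, read 4.86 to 5.001 in wild-type and 4.89 to 5.22 in *c*35 cells (log2 fold change -0.15, limma adjusted p = 0.329). All these *Ifit3* signals lie below the median of all probe sets, 5.66, which limits what the missing call shows. *Rsad2*, or viperin, gave -0.11, *Mx2* -0.14, and the GTPases *Gbp2* and *Gbp3* gave -0.023 and -0.032, all with limma adjusted p above the threshold. *Ifit1* gave -0.46 (limma adjusted p = 0.0246) and *Mx1* -0.40 (limma adjusted p = 0.0462), both under 1.5-fold.

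The 4 sensors and regulators measured went in either direction. *Ifih1*, which encodes the RNA sensor MDA5, read 8.19, 8.08 and 8.18 in naive wild-type and 7.52, 7.48 and 7.57 in naive *c*35 cells. The wild-type arrays were all higher, with a log2 fold change of 0.63 ± 0.07 (SE, limma adjusted p = 3.17e-07). *Usp18*, the protease that removes ISG15 from proteins and dampens receptor signaling, gave 0.29 (limma adjusted p = 0.00727), under 1.5-fold. *Trim25*, a ubiquitin ligase that activates the RNA sensor RIG-I, gave -0.14, and *Adar*, which edits adenosine in double-stranded RNA, gave -0.36. A second probe set of *Adar* was called lower, at -0.68. In the *Parp9* group, whose proteins PARP9 and DTX3L act as a complex, 0 of 3 members were called, with log2 fold changes of -0.46 for *Parp9*, -0.12 for *Parp14* and -0.18 for *Dtx3l*.

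Of the 5 antigen processing genes, 2 were higher in naive wild-type cells and 0 were lower. *Psmb8*, the immunoproteasome subunit also called LMP7, read 7.68, 7.93 and 7.83 on wild-type and 6.42, 6.43 and 6.54 on *c*35 arrays. The lines did not overlap, and the signal was 2.55-fold higher (log2 fold change 1.35 ± 0.10, SE, limma adjusted p = 1.55e-09). Its other probe set gave a log2 fold change of 0.063 and was not called, and the mean of both gave 0.71 (limma adjusted p = 1.19e-06). *Tap2*, a subunit of the peptide transporter, read 7.34, 7.25 and 7.19 against 6.53, 6.58 and 6.60 (log2 fold change 0.69 ± 0.08, SE, limma adjusted p = 7.18e-07). *Tap1*, the partner subunit, read 7.98, 7.84 and 7.87 against 7.59, 7.58 and 7.58. It too was higher on every wild-type array, but its log2 fold change of 0.31 ± 0.09 (SE, limma adjusted p = 0.00716) was under 1.5-fold. *Psmb9*, another immunoproteasome subunit, gave 0.47 (limma adjusted p = 0.00322). *B2m*, the shared light chain of class I molecules, read 13.53, 13.62 and 13.62 against 13.74, 13.70 and 13.62, with a log2 fold change of -0.095 ± 0.07 (SE, limma adjusted p = 0.367).

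The same line contrast was then taken on the TCDD arrays and on the BaP arrays, which are separate samples from the naive ones. On the TCDD arrays 11 members were lower and 3 higher in wild-type cells, where 6.32% of all genes were called lower and 8.65% higher. On the BaP arrays 9 were lower and 4 higher, against 6.83% and 8.98% of all genes. The 8 members *Stat2*, *Irf7*, *Irf9*, *Isg20*, *Oasl1*, *Oasl2*, *Bst2* and *Xaf1* were called lower with all 3 treatments, and *Psmb8* was called higher with all 3. The same lines were compared each time, and the share of all genes called with all 3 was not counted. The log2 fold change of *Psmb8* was 1.65 on TCDD and 1.74 on BaP arrays, and that of *Isg20* was -1.83 and -1.87. *Ifit1*, which binds viral RNA ends, was called lower only beside a ligand, at -1.05 on TCDD and -1.21 on BaP arrays, although the change in its line difference with ligand did not pass the test (limma adjusted p = 0.561 and 0.103). *Mx1*, an antiviral GTPase, was called lower on TCDD arrays at -0.80. *Tap1* was called higher on BaP arrays at 0.69, and *Tap2* at 0.80 there but not at 0.58 on TCDD arrays, just under 1.5-fold. *Ifitm3* at -0.45 and -0.36 was called on neither, and *Ifnar2* was called on TCDD arrays (-0.59) but not on BaP arrays (-0.30). The sign of the line difference was the same with all 3 treatments for 19 members that were lower and 9 that were higher in wild-type cells, called or not, and differed for the other 6. How often all genes kept their sign was not counted either.

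Ligand responses were much smaller than the line differences. In wild-type cells TCDD raised 2 of 34 members (5.88%) and lowered 0, where 0.341% of all genes rose and 0.0385% fell. BaP raised 1 member (2.94%) and lowered 0, against 0.885% and 0.434% of all genes. The 2 ligands share the same DMSO arrays, so their counts are not independent. The median log2 fold change of the members was 0.075 with TCDD, against 0.0063 for all genes. With BaP it was 0.13, against 0.0012 for all genes. The unadjusted p of limma was below 0.05 for 12 members that were higher and 1 that was lower with TCDD, where 8.28% of all genes were higher and 5.99% lower by that rule. With BaP it was 9 and 2 members, against 9.14% and 10% of all genes.

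*Usp18* rose with either ligand. It read 9.20, 9.20 and 9.23 in naive wild-type cells, 9.73, 9.85 and 9.84 with TCDD and 9.93, 10.005 and 10.03 with BaP. The groups of wild-type arrays did not overlap, and TCDD raised it by a log2 fold change of 0.59 ± 0.08 (SE, limma adjusted p = 0.000469) and BaP by 0.78 ± 0.08 (SE, limma adjusted p = 4.68e-06). In *c*35 cells *Usp18* stayed between 8.64 and 8.996 over all 9 arrays. *Dtx3l*, the ubiquitin ligase of the *Parp9* group, read 7.38, 7.69 and 7.54 in naive wild-type cells, 8.25, 8.07 and 8.07 with TCDD and 8.14, 8.03 and 7.92 with BaP. Every ligand array was above every DMSO array, and TCDD gave a log2 fold change of 0.59 ± 0.09 (SE, limma adjusted p = 0.00194). With BaP it was 0.49 (limma adjusted p = 0.00236), under 1.5-fold. Both TCDD calls lie at the edge of the 1.5-fold minimum: *Dtx3l* was lost without wild-type DMSO replicate 1 (log2 fold change 0.51) or TCDD replicate 1 (0.53), and *Usp18* without TCDD replicate 2 (0.57) or 3 (0.58).

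**Figure D3:**
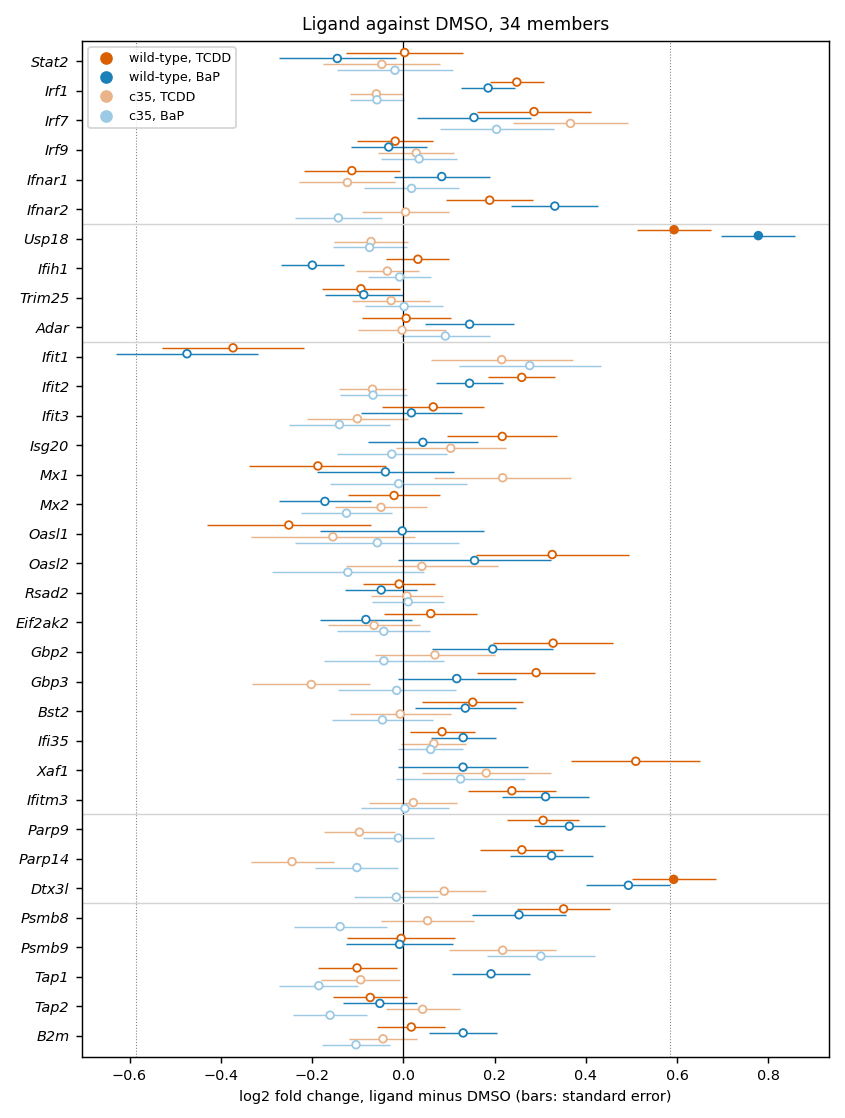
Log2 fold change, ligand minus DMSO, of each of the 34 measured members for TCDD and BaP in wild-type and *c*35 cells, with bars for the standard error and filled points where the member was called. The dotted lines mark 1.5-fold, past which *Usp18* (0.59 and 0.78) and, with TCDD, *Dtx3l* (0.59) lie in wild-type cells.

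The neighbours of *Dtx3l* moved by less. *Parp9*, its partner, read 7.76 to 7.77 in naive wild-type cells, 8.06 to 8.08 with TCDD and 8.04 to 8.19 with BaP, with log2 fold changes of 0.31 (limma adjusted p = 0.0815) and 0.36 (limma adjusted p = 0.00758). *Parp14*, an ADP-ribosyltransferase of the same family, gave 0.26 (limma adjusted p = 0.230) and 0.32 (limma adjusted p = 0.0418). With BaP, *Ifnar2* also passed the adjusted p alone (log2 fold change 0.33, limma adjusted p = 0.0489), so that 5 members were higher without the 1.5-fold minimum, where 3.33% of all genes were. *Ifit1* had the lowest value with each ligand, -0.37 with TCDD (limma adjusted p = 0.321) and -0.47 with BaP (limma adjusted p = 0.0926). The 3 transcription factors and 6 effectors that were lower in naive wild-type cells did not pass the test with either ligand. Their log2 fold changes ran from -0.25 (*Oasl1*) to 0.51 (*Xaf1*) with TCDD and from -0.14 (*Stat2*) to 0.31 (*Ifitm3*) with BaP. That of *Xaf1* with TCDD had a limma adjusted p of 0.118, and without wild-type DMSO replicate 2 it was called, at 0.63 (limma adjusted p = 0.0381). *Irf7* read 5.76 to 5.89 with TCDD against 5.48 to 5.56 with DMSO, arrays that did not overlap, but its log2 fold change of 0.29 had a limma adjusted p of 0.346. *Irf9* gave -0.018 and -0.032 with TCDD and BaP.

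In *c*35 cells neither ligand changed any member at an adjusted p below 0.1, the threshold used for this line without a minimum change, and 0% of all genes passed, for TCDD as for BaP. The DMSO baseline includes replicates 1 and 2, on which *Cyp1a1* was raised (8.32 and 8.34, against 4.87 on replicate 3). Other AHR targets were raised there too: *Tiparp* (10.36 and 10.30, against 9.34) and *Cyp1b1* (6.09 and 5.86, against 5.02). The unadjusted p of limma was below 0.05 for 1 member that was higher (*Irf7*, 0.37) and 1 that was lower (*Parp14*, -0.24) with TCDD, where 2.29% of all genes were higher and 2.87% lower by that rule. With BaP it was below 0.05 for 1 higher (*Psmb9*, 0.30) and 1 lower (*Tap1*, -0.19), against 1.57% and 1.97% of all genes. The lowest adjusted p of a member was 0.962 with TCDD. The response of the lines was compared directly as wild-type minus *c*35. For TCDD 1 member had a larger response in wild-type cells and 0 a smaller one, where 0.275% and 0.0055% of all genes did. For BaP it was again 1 and 0, against 1.01% and 0.33% of all genes. The member was *Usp18*, with a log2 difference in response of 0.66 ± 0.11 for TCDD (SE, limma adjusted p = 0.00977) and 0.85 ± 0.11 for BaP (SE, limma adjusted p = 0.000288). Without the 3 *c*35 arrays on which *Cyp1a1* was raised, which leaves 1 naive *c*35 array, these were 0.74 (limma adjusted p = 0.0703) and 1.003 (limma adjusted p = 0.00269). *Dtx3l* gave 0.50 (limma adjusted p = 0.190) and 0.51 (limma adjusted p = 0.0530), and the other members gave -0.59 to 0.50 for TCDD and -0.75 to 0.47 for BaP.

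**Figure D4:**
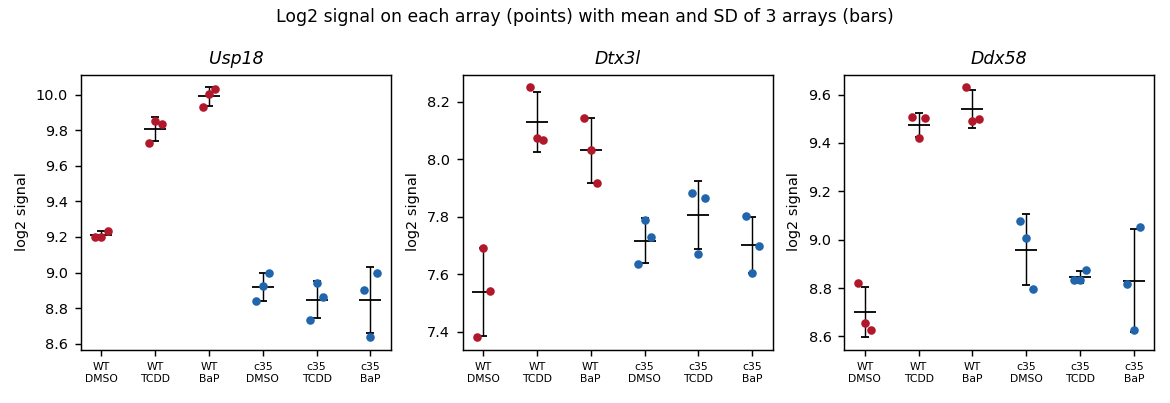
Log2 signal of *Usp18*, *Dtx3l* and *Ddx58* on every array, with wild-type (WT) arrays in red and *c*35 arrays in blue, a horizontal bar for the mean of 3 arrays and whiskers for the SD. The wild-type TCDD and BaP arrays lie above the wild-type DMSO arrays in each panel, for *Usp18* at 9.73 to 10.03 against 9.20 to 9.23, while the *c*35 groups overlap.

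TCDD and BaP were also compared with each other in wild-type cells, and 0 members were called in either direction, where 0.137% of all genes were higher and 0.121% lower with TCDD. At an unadjusted p below 0.05 by limma, 2 members were higher (*Xaf1*, 0.38, and *Ifih1*, 0.23) and 2 lower (*Tap1*, -0.29, and *Usp18*, -0.18) with TCDD, where 8.79% and 7.13% of all genes were. The lowest adjusted p was 0.108, that of *Tap1*. The doses differ between the ligands, and a p above the threshold does not show that they act alike.

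Other genes of the pathway, taken from lists of textbook members, put these values in context. None of the 6 interferon genes measured was called in naive cells, and the signals of *Ifnb1* were 4.71 ± 0.17 (SD, n = 3) in wild-type and 4.85 ± 0.29 (SD, n = 3) in *c*35 cells. Both *Ifnb1* means lie below the median of all probe sets, 5.66. Of 16 other receptors, kinases and transcription factors, 4 were lower and 1 was higher in naive wild-type cells. The same rule called 6.52% of all genes lower and 7.52% higher. *Ifngr2*, a subunit of the interferon-gamma receptor, gave -1.66 (limma adjusted p = 4.34e-09), *Socs3*, an inhibitor of cytokine signaling, -1.01 (limma adjusted p = 4.70e-09), *Stat3* -0.85 (limma adjusted p = 0.000203) and the kinase *Jak2* 0.90 (limma adjusted p = 1.55e-09). Of 48 other interferon-stimulated genes, 10 were lower and 6 higher, where 6.52% of all genes were called lower and 7.52% higher. The median log2 fold change of these 48 genes was -0.047, against -0.027 for all genes, and the highest was 0.998. The largest changes were those of *Ifi27l2a*, an interferon-induced membrane protein gene, at -4.07 (limma adjusted p = 8.31e-12), *Phf11d* at -2.86 (limma adjusted p = 2.41e-08), *Rtp4* at -2.47 (limma adjusted p = 4.92e-12) and the oligoadenylate synthetase *Oas2* at -2.00 (limma adjusted p = 6.30e-09). *Ifi27l2a* read 4.98, 6.19 and 6.19 on naive wild-type and 9.65, 9.79 and 10.12 on naive *c*35 arrays, so that even the highest wild-type array was far below every *c*35 array.

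Antigen processing genes outside the members were mixed. For comparison, 7.52% of all genes were called higher and 6.52% lower in naive wild-type cells. Of 12 class I heavy chain and peptide loading genes, 2 were higher and 1 was lower in naive wild-type cells: the nonclassical heavy chain *H2-M3* at 0.90 (limma adjusted p = 8.24e-05), the chaperone calnexin, *Canx*, at 0.86 (limma adjusted p = 4.46e-08) and *Tapbpl*, which edits peptides on class I molecules, at -0.63 (limma adjusted p = 2.90e-06). Of 8 constitutive proteasome genes 1 was called, *Psmb5*, the catalytic subunit that *Psmb8* replaces in the immunoproteasome. It read 11.13, 11.39 and 11.40 against 11.93, 11.98 and 12.04 (log2 fold change -0.67, limma adjusted p = 7.12e-08). That is the reverse of the direction of the *Psmb8* probe set used here, while the other *Psmb8* probe set was not called. The log2 fold changes of the 8 constitutive genes ran from -0.67 to 0.33, with a median of 0.10.

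With ligand, *Ddx58*, which encodes RIG-I, was raised in wild-type cells beside *Usp18* and *Dtx3l*. It read 8.82, 8.66 and 8.63 with DMSO, 9.51, 9.42 and 9.50 with TCDD and 9.63, 9.49 and 9.50 with BaP. The log2 fold change was 0.78 (limma adjusted p = 0.000113) and 0.84 (limma adjusted p = 9.22e-06), and its response differed from that of *c*35 cells by 0.89 (limma adjusted p = 0.00211) and 0.97 (limma adjusted p = 0.000290). Among *c*35 arrays, *Ddx58* was highest where *Cyp1a1* was raised (9.08 and 9.01 with DMSO, 9.05 with BaP). Its differences in response were not followed without those arrays. *Socs3* rose with BaP by a log2 fold change of 0.72 (limma adjusted p = 1.63e-05), and so did the chemokine gene *Cxcl10*, by 0.71 (limma adjusted p = 0.00432). Such calls were few. Among other sensors and adaptors 1 of 11 genes rose with each ligand (*Ddx58*). With BaP 1 of 16 other receptors, kinases and transcription factors and 1 of 48 other interferon-stimulated genes rose, and with TCDD 0 in either list. Over all genes 0.341% rose with TCDD and 0.885% with BaP. All 5 genes of a list of AHR targets (*Cyp1a1*, *Cyp1b1*, *Nqo1*, *Tiparp* and *Aldh3a1*) rose with each ligand in wild-type cells.

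Markers of other cells were read in the same arrays. Between the naive lines, 6.52% of all genes were called lower and 7.52% higher in wild-type cells. Of 9 macrophage and leukocyte markers measured, 3 were lower and 0 higher in naive wild-type cells, the same direction as most called members: *Cd68* at -1.39, *Csf1r* at -1.25 and *Cd14* at -0.73. The pan-leukocyte marker *Ptprc* was at 2.93 in wild-type and 2.85 in *c*35 cells, *Itgam* at 3.51 and 3.54, and *Adgre1* at 4.94 and 4.87. Of 6 fibroblast and stellate markers 1 was higher, *Pdgfrb* at 1.20, and 0 of 5 endothelial markers were called. Signals of *Dcn* (14.07 in naive wild-type and 13.68 in naive *c*35 cells) and *Col1a1* (10.55 and 10.31) were high but not called. The log2 of the summed fibroblast and stellate signal ran from 14.18 to 14.53 on naive wild-type and from 13.82 to 13.95 on naive *c*35 arrays. *Dcn* makes up most of that sum. The log2 of the summed signal of the 9 macrophage and leukocyte markers ran from 11.44 to 11.49 on naive wild-type and from 12.51 to 12.56 on naive *c*35 arrays. *Csf1r* and *Cd14* make up most of this sum. The part of these genes, and of the *Actb* 3′ minus 5′ difference, in the line differences was not tested beyond the covariate fit given above. That fit cannot separate the *Actb* difference from the line.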

How the data were processed

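Gene expression was measured on 18 arrays, with 3 biological replicates per group according to the study's methods. The authors deposited 1 table of log2 signals, which the submitters' processing notes credit to RMA (robust multiarray averaging; its version was not given in the sources used here), and no signal was corrected further. The TCDD dose of the wild-type arrays is missing from their labels and was taken from the methods. Symbols came from the platform annotation. Of 45101 probe sets, 64 controls were left out; of the 45037 tested, 34945 had 1 symbol, 932 several and 9160 none. All 34 measured members matched a current gene number, and 0 symbols differed. The members, the gene lists and the tests were chosen with earlier results of these data known.

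The 18 arrays entered 1 limma fit (version 3.58.1, R 4.3.3) with a mean for each group and eBayes with an intensity trend. Benjamini-Hochberg adjustment covered the 45037 probe sets, separately for each comparison. Calls needed more than 1.5-fold and an adjusted p under 0.05, except that ligand effects in the *c*35 line needed only an adjusted p under 0.1. Gene counts use 1 probe set per gene. Values on every array are given for members called in any comparison, largest change first and up to 4 per role, and for *Ifnar1*, *Ifnar2* and *B2m*; of the other lists up to 4 called genes with the largest changes were named, and *Ifnb1* was added after its values were seen. *Ddx58* and the markers were read the same way.

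Data were simulated from the mean of all arrays with normal noise of the fitted spread, and 200 of 45037 probe sets were changed. For the naive line comparison 73.1% of 1.6-fold, 100% of 2-fold and 100% of 4-fold changes were recovered, with 4 false calls. For the difference in BaP response these were 58.2%, 92.5% and 100%, with 10 false calls. The rates hold for that setting and are not the power of the real comparisons. Other priors, array weights, normalizations, filters, probe set rules, the replicate number as a block, an RNA quality covariate, other minimum changes, other sets of arrays and each array left out were tried. Array number limits the precision. Promoter matches came from RefSeq sequences (GRCm38.p6).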

Additional observations from a re-analysis of the deposited data

Results flagged for a closer look

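The response of *Usp18* to ligand differed between the lines by the test of the difference itself. Its log2 fold change in wild-type cells exceeded that in *c*35 cells by 0.66 with TCDD (limma adjusted p = 0.00977) and by 0.85 with BaP (limma adjusted p = 0.000288). All 3 wild-type arrays with each ligand were above all 3 naive wild-type arrays, while the *c*35 arrays with each ligand overlapped the naive *c*35 arrays. Both differences use the same DMSO arrays. The cause was not tested.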

How the results depend on the processing

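Of 350 values of single called members under an alternative, 323 kept their call, 27 lost it and 0 reversed direction. Members that were not called were not followed in this way. Without a minimum change, 22 members were called between the naive lines (37.9% of all genes were), 24 between the lines on the TCDD arrays (38.9%), 24 on the BaP arrays (39.5%) and 5 with BaP in wild-type cells (6.48%). When 1.5-fold itself was the null, 8 were called between the naive lines and 8 on the TCDD arrays, and 0 with TCDD or BaP in wild-type cells or in either difference in response, so the *Usp18* and *Dtx3l* calls did not hold there. The 2 members called with TCDD in wild-type cells became 1 with array weights, quantile normalization, the mean of the probe sets of a gene or only the arrays compared, and 1 to 3 with each array left out. *Xaf1* was the added member without DMSO replicate 2. With array weights 2 members differed in BaP response, the second being *Ifit1* at -0.90 (limma adjusted p = 0.0145). Without the 3 *c*35 arrays with raised *Cyp1a1*, a choice made after seeing the data that leaves 1 naive *c*35 array, assumed to vary like the other groups, 13 members were called between the naive lines, *Ifih1* (0.58) having been lost and *Ifit1* (-0.67) gained, and the TCDD response difference called 0. The cause of these changes was not tested. Replicate numbers did not pair the samples (correlation of deviations -0.26 to 0.22, median 0.020, for same-numbered arrays), and with a replicate block 13 members were called between the naive lines and no count of members changed. *Oasl2* had no value where probe sets below the median signal were left out.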
